A study of Mus musculus with 15 samples.

Results

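GABA and glycine signalling genes were followed here through DNA methylation in the dentate gyrus, the part of the hippocampus whose granule cells receive the main cortical input. The group holds 29 named genes: subunits of the ionotropic GABA-A receptors, the 2 subunits of the metabotropic GABA-B receptor, the enzymes that make and break down GABA, the transporters of GABA and glycine, glycine receptor subunits and the scaffold gephyrin. Its members were the CpG sites inside these genes or within 2 kb of them, by RefSeq gene positions of assembly GRCm38.p6. They numbered 673 of the 455836 CpG sites of the deposited table, where a site is 1 cytosine on 1 strand, and 180 of them had a value in all 15 mice against 113832 in the whole table. Measured sites lay in 27 of the 29 genes, from 1 site in Gabrr1 to 110 in Gabbr2, and none in Gabra6 or Glrb. The rule that defines the members uses gene names and positions, and no measured value enters it. The members were, however, chosen with earlier results of these data known.

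The mice were 15 female C57BL/6JRj animals aged 7.5 months, and the dentate gyrus of each was micro-dissected. Of these, 5 had lived for 6 months in standard cages (standard), 5 for 6 months in an enriched environment (enriched), and 5 for 3 months in enrichment and then for 3 months in standard cages (withdrawal). No genotype or agent other than the housing is named in the labels, and all the mice were kept on a 12:12 light and dark cycle in a pathogen-free facility with free access to food and water. The assay was reduced representation bisulfite sequencing (RRBS), which reads CpG-rich fragments of the genome, and each value is the percent of reads at a cytosine that carried methylation.

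GABA is the main inhibitory transmitter of the forebrain, and glycine that of the spinal cord and brainstem. Interneurons make GABA from glutamate with the glutamate decarboxylases, load it into vesicles and release it onto receptors that pass chloride, and in the dentate gyrus this inhibition keeps most granule cells silent. CpG-dense starts of genes usually carry little methylation in any tissue, whereas CpG sites inside genes are often methylated. Methylation is no measure of expression, and a percentage in dissected tissue averages over all its cells, so that another mix of cells and another methylation per cell cannot be told apart.

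Promoter windows show what the sites near the starts look like. In the sequences below, taken from RefSeq (GRCm38.p6) and read 5′ to 3′ on the strand of the gene, each window covers 250 bases before and 50 bases from the start, and every CpG is in capitals. Gabra4 and Gabrb1 are shown because their shared start had the lowest mean level among starts with at least 3 sites measured in all mice, Gad1 because its start had the highest of those, and Gad2 because its start had the smallest unadjusted p between housing groups. Over all start sites, complete or not, that order did not hold: the 24 of Gad1 averaged 1.90% and the 11 shared by Gabra4 and Gabrb1 averaged 1.996%. Gabra2, Slc6a13 and Gabrg1 were added after their values were seen, as a dense unmethylated window, a partly methylated one and a CpG-poor one.
Gabra4, chr5:71658259-71658558, minus strand: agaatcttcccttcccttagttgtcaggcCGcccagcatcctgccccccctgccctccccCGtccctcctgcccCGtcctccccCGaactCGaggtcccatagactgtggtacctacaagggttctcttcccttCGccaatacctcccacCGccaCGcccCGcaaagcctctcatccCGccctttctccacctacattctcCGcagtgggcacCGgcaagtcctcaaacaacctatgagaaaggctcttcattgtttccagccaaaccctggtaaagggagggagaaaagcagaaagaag
Gabrb1, chr5:71657671-71657970, plus strand: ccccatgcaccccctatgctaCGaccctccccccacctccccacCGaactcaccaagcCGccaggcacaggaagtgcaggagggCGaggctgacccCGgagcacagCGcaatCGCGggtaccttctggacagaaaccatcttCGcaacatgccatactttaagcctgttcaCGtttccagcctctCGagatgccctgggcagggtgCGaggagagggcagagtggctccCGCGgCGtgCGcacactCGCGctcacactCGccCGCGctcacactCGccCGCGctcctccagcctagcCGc
Gad1, chr2:70561879-70562178, plus strand: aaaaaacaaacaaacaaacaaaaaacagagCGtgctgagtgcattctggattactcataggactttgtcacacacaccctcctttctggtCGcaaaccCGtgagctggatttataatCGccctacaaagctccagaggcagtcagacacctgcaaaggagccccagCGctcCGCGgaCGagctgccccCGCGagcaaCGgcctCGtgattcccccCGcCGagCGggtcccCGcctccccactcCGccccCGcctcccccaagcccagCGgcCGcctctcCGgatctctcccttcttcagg
Gad2, chr2:22622077-22622376, plus strand: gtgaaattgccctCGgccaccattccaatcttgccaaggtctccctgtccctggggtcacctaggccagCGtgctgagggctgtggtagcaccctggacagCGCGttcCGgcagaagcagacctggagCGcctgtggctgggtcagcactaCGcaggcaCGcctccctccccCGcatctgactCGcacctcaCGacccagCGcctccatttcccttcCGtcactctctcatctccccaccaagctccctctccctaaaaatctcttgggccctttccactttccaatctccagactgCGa
Gabra2, chr5:71095800-71096099, minus strand: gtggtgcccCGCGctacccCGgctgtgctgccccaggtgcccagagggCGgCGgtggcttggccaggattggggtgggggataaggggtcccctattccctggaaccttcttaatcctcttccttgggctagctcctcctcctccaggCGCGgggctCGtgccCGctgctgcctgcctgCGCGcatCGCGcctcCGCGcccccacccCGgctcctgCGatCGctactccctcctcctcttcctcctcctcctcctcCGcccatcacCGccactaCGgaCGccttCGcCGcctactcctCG
Slc6a13, chr6:121300038-121300337, plus strand: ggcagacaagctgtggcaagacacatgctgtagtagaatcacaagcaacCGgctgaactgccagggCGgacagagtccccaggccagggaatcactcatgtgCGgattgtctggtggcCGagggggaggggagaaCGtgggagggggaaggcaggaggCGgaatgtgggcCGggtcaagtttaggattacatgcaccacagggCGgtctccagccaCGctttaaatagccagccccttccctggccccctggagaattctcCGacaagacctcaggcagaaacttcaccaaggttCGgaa
Gabrg1, chr5:70842568-70842867, minus strand: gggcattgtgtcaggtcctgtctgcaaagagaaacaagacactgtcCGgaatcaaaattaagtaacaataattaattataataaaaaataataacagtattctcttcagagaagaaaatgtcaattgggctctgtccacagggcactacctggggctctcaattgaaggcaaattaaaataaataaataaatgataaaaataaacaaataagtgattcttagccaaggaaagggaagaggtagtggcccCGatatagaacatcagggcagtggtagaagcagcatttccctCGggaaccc

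The windows hold from 3 CpGs (Gabrg1) to 25 (Gabra2 and Gabrb1), where the median over 32817 promoter windows of the mouse genome was 7. Gad1 has 21, Gad2 14, Gabra4 12 and Slc6a13 11. In the Gabra2 window 6 sites were measured, with a mean of 0.723% methylation and none above 1.43%. The Slc6a13 window had 4 measured sites with a mean of 21.2%, from 11.3% to 38.8%. Gabrg1 had 2 measured sites in its window, at 3.20% and 10.9%, and Gabra4 had 1, at 2.61%. No site was measured inside the windows of Gabrb1, Gad1 and Gad2, whose nearest measured sites lay outside the 300 bases shown.

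Over all 26 member genes with an entry in the promoter table there were 38 windows, because some genes have several starts. The letters CCGG, read on both strands since they are their own reverse complement, occurred in 20 of the 38 (52.6%), against 52.8% of all 32817 windows. Measured sites fell in 9 of the 38 windows, from 8 genes, and all 9 hold CCGG. Gabrd, Abat and Glra1 were not in that table, so their strand and start were not used here.

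Across all 673 sites, low methylation was the commonest state. A mean under 20% was found at 418 sites (62.1%), 112 (16.6%) lay between 20% and 80%, and 143 (21.3%) lay above 80%. Over all CpG sites the same shares were 52.4%, 17.2% and 30.4%, and over the 306865 sites in or near protein-coding genes they were 66.1%, 14.4% and 19.5%. Some genes were low at every measured site: Gabra2 (20 sites), Gabra5 (30), Gabrb2 (10), Gabrg1 (12), Gabbr1 (33) and Slc32a1 (36). Others were above 80% at every measured site, namely Gabrd (7 sites), Slc6a12 (4), Glra3 (2) and Gabrr1 (1).

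**Figure D1:**
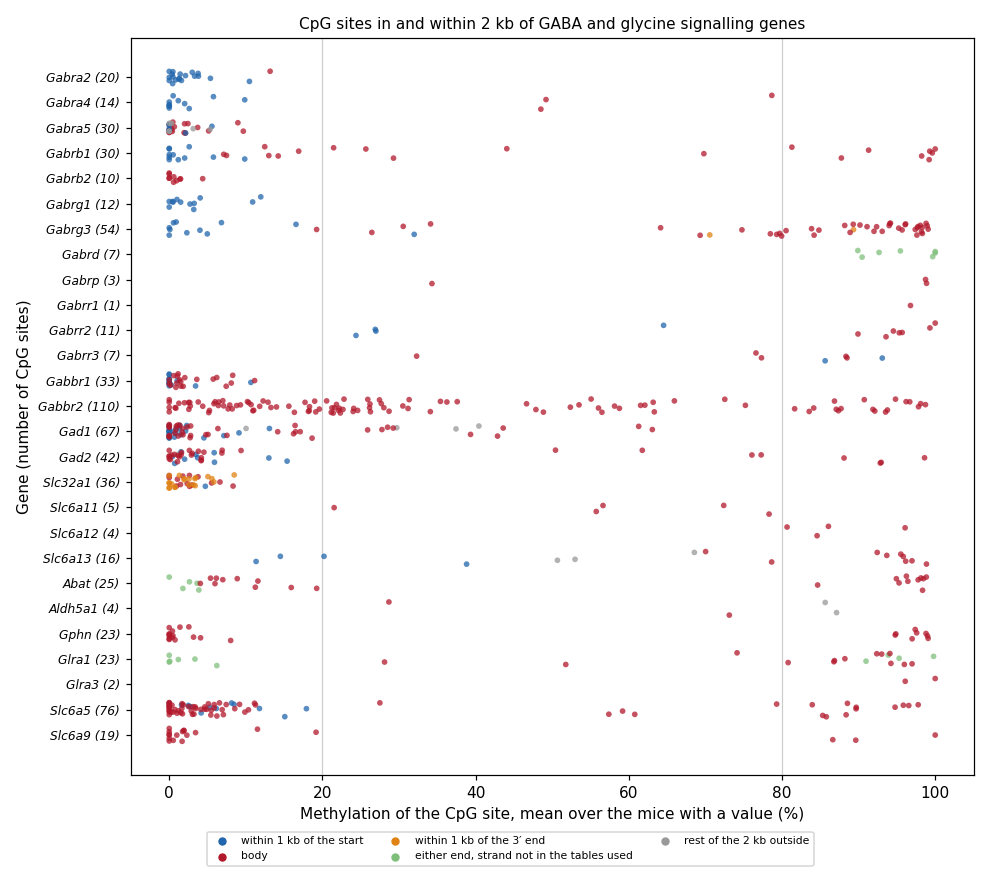
Mean methylation of each CpG site (x axis, %) for the 27 genes with measured sites (y axis, with the number of sites), coloured by position in the gene; each point is 1 site averaged over the mice with a value, and the small vertical offsets are only for display. Sites within 1 kb of a start (blue) crowd at the left, whereas body sites (red) range from 0% to 100%, with the 110 sites of Gabbr2 spread over most of the scale.

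Distance from a start ordered these values. Of the 169 sites within 1 kb of a start in the promoter table, 164 (97.0%) had a mean under 20%, and their median was 0.905%. For all protein-coding genes that share was 94.2% of 125791 sites. From 1 to 5 kb from a start, 167 of 181 sites (92.3%) from 9 genes were still under 20%, with a median of 2.68%, whereas over all genes 65.5% of 31126 sites were. The 2 shares are given as a description, because the sites of a gene are not independent of each other. Beyond 5 kb the sites were mixed: the median was 76.6% over 93 sites from 5 to 50 kb (71.8% over all genes) and 56.0% over 175 sites beyond 50 kb (75.8% over all genes). These 175 sites came from 9 genes, with more from Gabbr2 than from any other. They include the sites at the outer end and flank of Gabra5, whose start in the promoter table lies inside that gene.

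**Figure D2:**
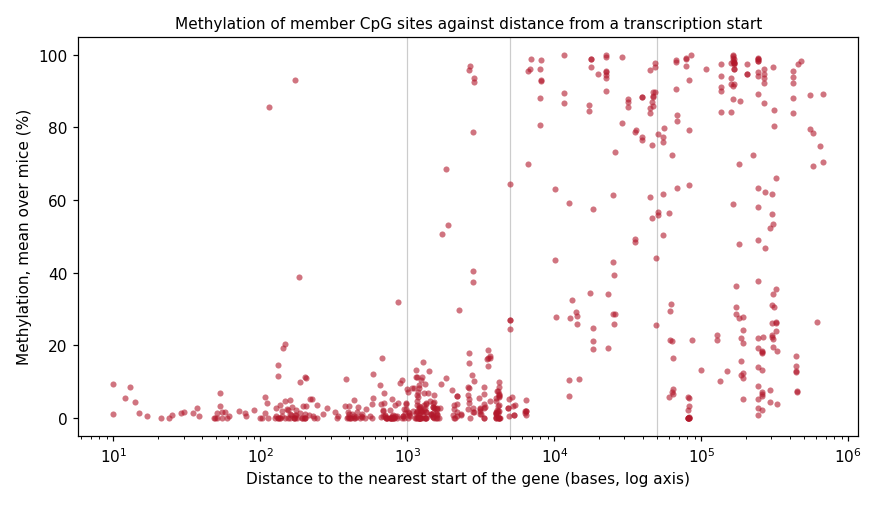
Mean methylation of member CpG sites (y axis, %) against the distance to the nearest start of the same gene in the promoter table (x axis, bases, logarithmic, distances under 10 drawn at 10), with lines at 1, 5 and 50 kb. Most points within 5 kb lie under 20%, and beyond 5 kb they spread over the whole scale.

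Levels per gene were then taken as the mean over the sites with a value in all mice, for zones with at least 3 such sites. The start zone is within 1 kb of the outer 5′ end of the gene in the gene table, the tail zone within 1 kb of the 3′ end, and the body is the rest of the gene. Of the 29 genes, 5 had a measured start zone, 13 a body and 1 a tail (Slc32a1), and the housing comparisons of zones rest on those alone. The outer end is not always the start in use. In Gabrb1, Gabrb2, Gphn, Slc6a5, Slc6a9, Gabra5, Gad2, Slc32a1 and Gabrr2, for example, a start of the promoter table lies inside the zone called body. The distances to those starts are given where they matter.

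Among the receptor genes, the alpha subunit gene Gabra4 and the beta subunit gene Gabrb1 overlap by 388 bases at their 5′ ends and share 11 measured sites there, of which 4 were complete. Their common start zone averaged 2.60% ± 3.10 (SD over 15 mice). Gabrg1, a gamma subunit gene, averaged 4.46% ± 2.97 over 7 start sites. The start of Gabra2 had 19 sites with a mean of 2.11%, only 2 of them complete. In Gabbr1, which encodes the GABA-B subunit that binds the ligand, 13 start sites averaged 1.18% and 6 complete body sites averaged 3.92% ± 2.18. Those 6 lay no further than 1262 bases from the start, just past the start zone. The 10 sites of Gabrb2 lay next to the third of its starts in the promoter table, the nearest at 8 bases from it, and averaged 0.937% ± 1.36, the lowest body value of the group.

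Gabra5, an alpha subunit gene with strong hippocampal expression, had no complete site. Its 18 body sites lay close to a start inside the gene, the nearest at 0.65 kb, and averaged 2.12%. The sites at its outer end and in its flank overlap other annotation and are not described further. In Gabrg3, which spans 671 kb, the 11 start sites averaged 6.20%, while the 41 body sites averaged 83.9% and the 2 sites at the 3′ end lay at 70.6% and 89.3%.

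The rho subunit genes, whose receptors are best known from the retina, carried more methylation. Gabrr2 had 4 start sites with a mean of 35.7% (24.4% to 64.5%), the nearest of them 4.97 kb from the start in the promoter table, and 4 complete body sites at 93.9% ± 3.70. Gabrr3 had 2 start sites at 85.6% and 93.1%, the nearest 114 bases from its start, each with a value in 11 mice. Gabrd, which encodes the delta subunit of extrasynaptic receptors on granule cells, had 7 sites at its lower-numbered end with a mean of 95.5%, each measured in 9 or 10 mice. Gabrp had 3 body sites, from 34.3% to 98.9%.

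Gabbr2, the GABA-B subunit that couples to G proteins, gave the densest view of a gene body. Its 110 sites lay over most of the 329 kb of the gene, with 46 under 20%, 46 between 20% and 80% and 18 above 80%. The 13 sites nearest its start formed 2 clusters, with means of 4.23% at 1.10 kb and 3.44% at 1.57 kb. Low stretches recurred far inside the gene: 8 sites at chr4:46731618-46731911 averaged 11.1%, 7 at chr4:46747086-46747200 averaged 10.4% and 6 at chr4:46799945-46800059 averaged 16.8%. They lay 260, 245 and 192 kb from the start. Between them 5 sites had intermediate means, and high stretches lay on either side, with 5 sites at chr4:46724269-46724401 at 92.7% and 4 at chr4:46832194-46832250 at 91.9%. The mean over the 26 complete body sites, 41.4% ± 3.58, therefore joins stretches of opposite state.

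Grouping sites no more than 300 bases apart gave 49 clusters of at least 5 sites over all the genes, with the one shared by Gabra4 and Gabrb1 counted once. Of these 38 averaged under 20%, 3 between 20% and 80% and 8 above 80%. Among the 15 clusters more than 5 kb from a start of the promoter table, 6 were low, 3 intermediate and 6 high. Besides those of Gabbr2, the low ones lay in Gad1 and at the outer end and flank of Gabra5. Exons and introns were not used here, so the position of a cluster is given only by distance.

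The genes of GABA synthesis and release were low at most of their measured sites. Gad1, which encodes the decarboxylase GAD67, had 24 start sites with a mean of 1.90%, 3 of them complete, with 7.90% ± 4.79 over those 3. All 24 also lie inside Gad1os, an RNA gene that overlaps Gad1. Low values went on into the gene, with 7 sites at 1.52 kb (2.26%), 5 at 2.01 kb (2.15%) and 6 at 6.31 kb (2.02%), interrupted by 6 sites at 3.49 kb with 16.5%. Further in, 3 sites at 10.1 kb averaged 44.8% and 5 at 25.2 kb averaged 39.6%.

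Gad2, which encodes the synaptic decarboxylase GAD65, averaged 5.70% ± 2.95 over 9 complete start sites and 27.6% ± 4.39 over 10 complete body sites. Its body held 23 sites at chr2:22623616-22623850 with a mean of 2.63%, then 4 sites at 8.04 kb with 93.1% and 4 at 54.6 kb with 66.4%. Slc32a1, the vesicular GABA transporter, is a short gene of 8.5 kb, and its 36 sites were all under 20%, from the body (2.86%, 14 sites) to the 3′ end (2.41%, 21 sites). The 4 complete tail sites averaged 4.20% ± 3.46, where the median over 315 genes with a measured tail was 11.9%.

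Genes of GABA uptake and breakdown had intermediate or high levels at most sites away from their ends, except in 1 stretch of Abat. Slc6a11, the transporter GAT3, had 5 body sites from 21.5% to 78.3%. Slc6a12 had 4 body sites from 80.7% to 96.1%. Slc6a13 had 4 start sites, those of the printed window, and 9 body sites with a mean of 90.9%. In Abat, the GABA transaminase, 5 sites at the lower-numbered end averaged 2.39%, 10 sites at chr16:8530032-8530193 averaged 9.54%, and the other 10 body sites were all above 80%. Aldh5a1, the next enzyme of that pathway, had 4 sites, from 28.7% to 87.1%.

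Glycine transporter genes and the shared scaffold were low near their starts and high further inside. Gephyrin (Gphn), which anchors GABA-A and glycine receptors at inhibitory synapses, had 9 sites next to its start in the promoter table at 0.877% and 6 more at 0.782 kb with 2.24%. Its 8 other sites were all above 80%. Slc6a5, the neuronal glycine transporter GlyT2, had 60 of 76 sites under 20%, among them 13 at one start with 3.97% and 15 at the next with 1.29%. The 11 sites above 80% lay at 19.7 kb and beyond. Slc6a9, the glial glycine transporter GlyT1, had 14 sites 1.17 kb from a start with 1.04% and 3 sites at 11.6 kb with 92.1%. Glra1, a glycine receptor alpha subunit, had 6 sites at its higher-numbered end with a mean under 2% and 4 at the other end with 95.0%.

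Gene bodies were set against gene starts within each mouse, where both values come from the same DNA. For Gabra4 the body value was 44.5%, 100%, 52.7%, 50% and 89.2% in the standard mice, 88.9%, 42.5%, 25.4%, 42.1% and 55.6% in the enriched mice, and 47.1%, 71.4%, 55.8%, 60.3% and 56.5% in the withdrawal mice. Every one of these lay above the highest start value of any mouse, 9.36%. The body exceeded the start by 56.2 percentage points, a log2 ratio of 4.49 ± 0.41 (SE, adjusted p = 5.8e-09, limma with Benjamini-Hochberg over 798 genes, where the log2 ratio is that of percent methylated to percent unmethylated after adding 5 points to each). Gabrb1 differed by 29.4 points (32.0% against 2.60%, log2 ratio 2.85 ± 0.17, limma adjusted p = 1.08e-11) and Gad2 by 21.9 points (log2 ratio 2.01 ± 0.15, limma adjusted p = 2e-10), with no overlap between body and start values over the 15 mice. Both body means join low and high stretches. Of the 10 complete body sites of Gad2, 6 lay in its cluster with a mean of 2.63% and 4 in that at 66.4%. The complete body sites of Gabrb1 lay in clusters from 7.30% (2 sites) to 90.3% (2 sites).

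Gad1 did not pass this test: its 4 body sites averaged 9.16% and its 3 start sites 7.90%, a log2 ratio of 0.20 ± 0.18 (limma adjusted p = 0.305). So 3 of the 4 member genes were called with a higher body, beside 690 of the 798 genes tested (86.5%). The Gad1 result depends on the sites and zones used. Of its 4 complete body sites, 3 lay in the cluster at 2.01 kb and 1 in that at 25.2 kb. Over all their sites these clusters averaged 2.15% and 39.6%. The 3 complete start sites lay in a cluster of 15 that begins 0.766 kb from the start in the promoter table. With all sites, each mouse averaged over its own, the body was higher by 10.7 points (limma adjusted p = 1.63e-07), and with zones of 2 kb it was lower by a difference of -4.19 points (adjusted p = 0.114).

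Starts and bodies of the group can be placed among all genes. The 5 start values ran from 2.60% to 7.90%, where the median over 3074 genes was 1.88% and the upper quartile 3.51%. The 13 body values ran from 0.937% (Gabrb2) through 37.0% (Slc6a5, their median) to 93.9% (Gabrr2), where the median over 4682 genes was 54.4%. Those of Gabbr1 and Slc6a9 came only from sites no further than 1290 bases from a start. With starts taken from the promoter table, Gad1 and Gad2, the highest start values, had no start zone with 3 complete sites. Gabrb2 (0.937%) and Slc6a5 (1.90%) became start values, so that the 5 starts ran from 0.937% to 4.46% with a median of 2.60% (4.46% before). The body of Slc6a5 became 54.6% and that of Gphn 97.1%. The start values of Gabra4 and Gabrb1 stayed the same. They are a single value from the same 4 complete sites, counted for each gene among the 5 starts and in both medians.

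Housing was compared next. The comparison asks whether 6 months of enrichment, or its end after 3 months, went with another methylation of these genes. Of the 180 complete sites, 163 varied by at least 5 points over the mice and were tested in a limma fit of all 100562 such CpG sites. None of the 163 passed an adjusted p of 0.05 in any of the 3 pairings of the groups, and over all sites the share called was 0% in each. At an unadjusted p under 0.05 there were 8 member sites (background 5.15%) between enriched and standard mice, 10 (background 4.42%) between withdrawal and standard mice, and 8 (background 4.3%) between withdrawal and enriched mice. As shares of the 163 these are 4.91%, 6.13% and 4.91%, near the background in each comparison.

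The sizes of the differences were like those of other sites. The median absolute difference of the member sites was 3.58 points between enriched and standard mice (3.76 over all tested sites), 3.83 between withdrawal and standard (3.54) and 3.18 between withdrawal and enriched (3.48). There were 80 sites higher and 75 lower in enriched than in standard mice, 95 higher and 65 lower in withdrawal than in standard mice, and 90 higher and 71 lower in withdrawal than in enriched mice. The median differences were 0, 1.2 and 0.823 points, beside 0, 0.282 and 0.148 points over all tested sites. The mean over the 180 complete sites came to 36.1% ± 1.31 for standard mice, 35.9% ± 0.562 for enriched mice and 37.0% ± 1.34 after withdrawal (SD, n = 5). These values were not tested.

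In the start zones, no member was called in any comparison, and neither was any of the 3074 genes (0%). At an unadjusted p under 0.05 the background was 5.14% between enriched and standard mice, 5.01% between withdrawal and standard mice and 5.07% between withdrawal and enriched mice. In the last of these 1 of the 5 members (Gabra4 and Gabrb1 with the same start) passed it, in the others none did. That was the start of Gad2, whose sites lay 1280 to 2300 bases from the Gad2 start in the promoter table. With that start Gad2 has no start zone to test. Its level was 7.46%, 7.52%, 5.41%, 1.5% and 3.73% in the standard mice, 4.03%, 3.22%, 0.863%, 6.77% and 3.97% in the enriched mice, and 5.09%, 8.17%, 8.89%, 7.02% and 11.9% in the withdrawal mice. Withdrawal mice were the highest on average, and 1 enriched mouse lay within their range. The means were 8.22% ± 2.52 and 3.77% ± 2.11, a log2 ratio of 0.67 ± 0.26 (limma adjusted p = 0.848), which did not pass the correction over all starts.

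Among gene bodies, 2 of 4682 were called between enriched and standard mice (0.0427%), neither of them a member, and 0% in the other comparisons. Unadjusted p-values under 0.05 made up 6.26%, 5.19% and 4.19% of all bodies in the 3 comparisons, in the order given above, and none of the 13 members had one. Abat came closest, with 50%, 51.1%, 48.8%, 52.0% and 44.4% in standard mice, 50.9%, 56.0%, 64.6%, 51.3% and 60% in enriched mice and 53.8%, 52.9%, 46.2%, 53.3% and 69.0% in withdrawal mice. Enriched mice averaged 7.32 points above standard mice, with overlapping ranges (limma adjusted p = 0.816). This value rests on 4 complete sites, 2 of them in the low cluster that holds the Abat site named below, so the results are not independent. The body of Gabra4 had the widest spread of the group, an SD of 25.4 points among standard mice, 23.8 among enriched mice and 8.81 after withdrawal, over 3 neighbouring sites. The differences between its group means, up to 16.4 points, were smaller than the spread of the standard mice. The Slc32a1 tail did not differ either beyond its spread, with 6.15% ± 4.21, 2.78% ± 2.90 and 3.68% ± 2.87 in the same order (lowest limma adjusted p = 0.738).

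**Figure D3:**
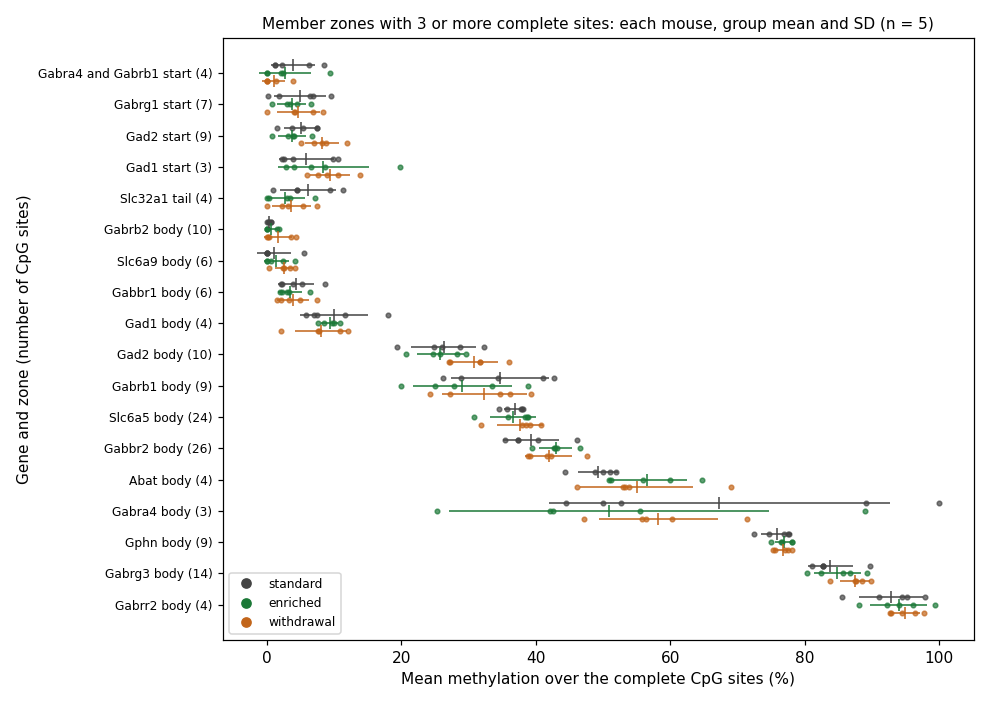
Mean methylation over the complete CpG sites (x axis, %) of each member zone (y axis, with the number of sites); points are single mice, vertical ticks are group means and horizontal lines are ± 1 SD (n = 5 per group). The groups overlap in every zone, and the mice spread most in the Gabra4 body, from 25.4% to 100%.

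Single sites with the smallest unadjusted p were looked at one by one, 3 for each comparison. Gabrb1 had one at chr5:72138192 (minus strand), in the gene body and 438 kb from the nearest start of the gene in the promoter table. It read 30%, 44.4%, 8%, 17.4% and 8.70% in standard mice, 0% in 4 enriched mice and 4.76% in enriched mouse 3, and 21.1%, 23.9%, 12.8%, 8.51% and 15.4% in withdrawal mice. Enriched mice were lower than all the others, with no overlap. The difference from standard was -20.8 points, a log2 ratio of -2.37 ± 0.54 (limma adjusted p = 0.506), and withdrawal mice exceeded enriched mice by 15.4 points (limma adjusted p = 0.881). The 2 other complete sites within 200 bases had differences of the same sign, -1.59 and -16.5 points between enriched and standard mice, neither with p under 0.05.

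In Abat a site at chr16:8530193 (minus strand), in the cluster of low sites described above, was higher in enriched mice. It read 0%, 6.38%, 0%, 10.7% and 0% in standard mice, 40%, 12.5%, 38.2%, 25% and 20% in enriched mice, and 15.9%, 12.5%, 0%, 14.1% and 43.8% in withdrawal mice. Standard and enriched mice did not overlap, and withdrawal mice covered the range of both. The difference between enriched and standard was 23.7 points, a log2 ratio of 2.43 ± 0.67 (limma adjusted p = 0.683). The 1 other complete site within 200 bases was higher in enriched mice by 10.4 points, also with an unadjusted p under 0.05.

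Gad2 gave a site at chr2:22620142 (minus strand), before the gene, that contributes to its start value. It read 0% in 4 standard mice and 25% in standard mouse 3, 0% in all 5 enriched mice, and 15.3%, 18.2%, 14.6%, 8.43% and 6.56% in withdrawal mice. Withdrawal and enriched mice did not overlap, while standard mouse 3 was the highest of all 15. Withdrawal exceeded enriched by 12.6 points, a log2 ratio of 1.95 ± 0.51 (limma adjusted p = 0.881). Of the 5 other complete sites within 200 bases 4 were higher in withdrawal mice, by up to 9.39 points, none with p under 0.05.

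A site in the Gabrg3 body, chr7:56813106 (minus strand), read 77.3%, 73.9%, 43.3%, 82.1% and 86.1% in standard mice, 66.7%, 66.7%, 77.4%, 75% and 61.1% in enriched mice, and 100%, 86.8%, 100%, 80.7% and 100% in withdrawal mice. Withdrawal mice lay above all enriched mice and overlapped the standard mice. They exceeded enriched mice by 24.1 points (log2 ratio 2.39 ± 0.65, limma adjusted p = 0.881) and standard mice by 21.0 points (limma adjusted p = 0.961). The neighbouring complete site differed by 4.67 and 3.75 points in the same comparisons.

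The other 3 named sites lay in low regions, where many mice read 0%. At the shared start of Gabra4 and Gabrb1, chr5:71658201 (minus strand), standard mice read from 5.26% to 25%, while 4 of 5 enriched and 3 of 5 withdrawal mice read 0% (enriched against standard -9.29 points, limma adjusted p = 0.913). At chr4:117836548 (minus strand) in Slc6a9, all standard mice read 0% and withdrawal mice 2.22%, 4.76%, 15.7%, 0% and 25% (9.53 points, limma adjusted p = 0.961). Before Gabrg1, chr5:70842993 (minus strand) read 0% in 12 mice and 7.81%, 29.4% and 11.6% in 3 withdrawal mice (9.76 points, limma adjusted p = 0.961). Other complete sites within 200 bases mostly did not share the sign of these differences. For Gabra4 and Gabrb1 0 of 3 did (0 to 4.57 points). In Slc6a9 1 of 5 did (-1.98 to 1.905 points), and before Gabrg1 0 of 5 (-16.3 to 0 points).

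**Figure D4:**
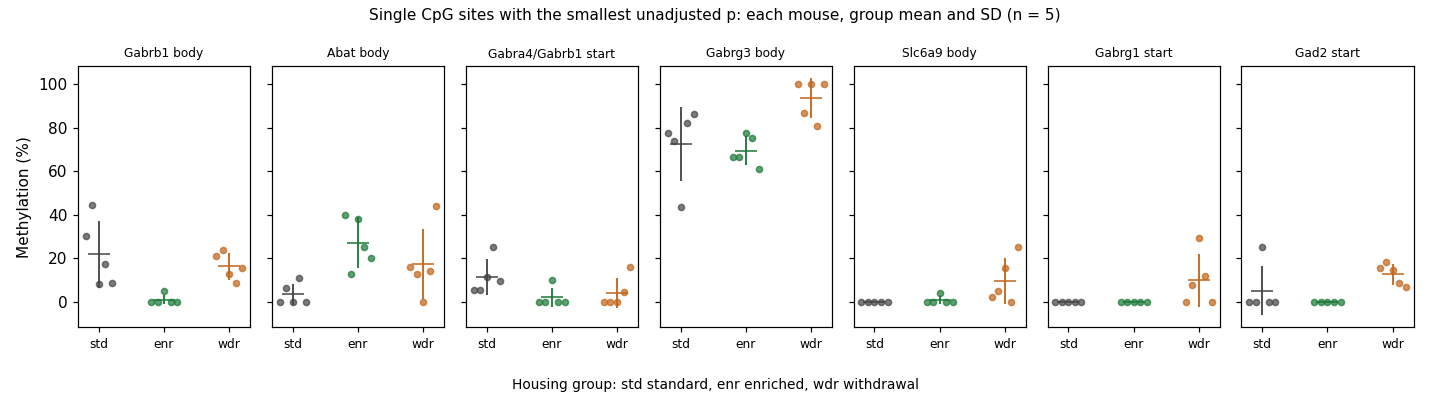
Methylation (y axis, %) at the 7 named CpG sites in standard, enriched and withdrawal mice (x axis); points are single mice, horizontal ticks are group means and vertical lines are ± 1 SD (n = 5). Enriched mice lie near 0% at the Gabrb1 and Gad2 sites, and at all the sites but that of Gabrg3 most mice of at least 1 group read 0%.

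Groups without any overlap occurred at 2 member sites between enriched and standard mice (background 0.458%), the named ones in Gabrb1 and Abat. Between withdrawal and standard mice there were 0 (background 0.532%), and between withdrawal and enriched mice 3 (background 0.51%), in Gabrb1, Gabrg3 and Gad2. As shares of the 163 tested sites these are 1.23%, 0% and 1.84%. Enriched against standard and withdrawal against enriched share the enriched mice, so the Gabrb1 site counts in both for the same low values.

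How exactly a single site was measured can be seen from 53 member CpGs read on both strands. At the 47 of them under 20%, the strands in the same mouse differed by a median of 0 points and a mean of 4.86 points, and mice of a group by a mean of 4.87 points. Among the other 6, which lay between 20% and 80%, the strands differed by a median of 21.4 points, and mice of a group at the same strand by 15.9 points. Over all 3460 such CpGs of the table the medians were 21.0 and 18.2 points. The median SD within groups was 5.77 points at low member sites, 19.6 at intermediate ones and 7.92 at high ones, beside 4.94, 17.5 and 7.38 over all CpG sites. The read depth behind these values is unknown, and its part in the differences above was not tested. The number of member sites with a value ran from 427 to 636 among standard mice, from 479 to 648 among enriched mice and from 568 to 669 after withdrawal.

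A second list held 29 further genes of the pathway, and 14 of them had measured zones (16 zones: 3 starts, 12 bodies and 1 tail). None was called in any comparison. At an unadjusted limma p under 0.05, 3 were higher and 0 lower in enriched than in standard mice, 2 higher and 1 lower in withdrawal than in standard mice, and 0 higher and 1 lower in withdrawal than in enriched mice. All but 4 of the 16 zones are bodies, for which the shares over all genes, both directions together, were 6.26%, 5.19% and 4.19%. The body of Gldc, which breaks down glycine, was measured at 3 sites and differed by 14.6 points between enriched and standard mice, with the higher mean in enriched mice (limma adjusted p = 0.73).

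Of 15 genes that mark cell types of the region, 9 had measured zones, and none had an unadjusted p under 0.05 in any comparison. The start of Prox1, the transcription factor of granule cells, averaged 1.73% and its body 10.5%, whereas the body of Dsp, also used as a granule cell marker, averaged 91.4%. Among interneuron markers the body of Lhx6 averaged 2.63% and that of Pvalb 82.5%, and the body of the oligodendrocyte gene Mog averaged 93.5%. Without expression values the labelled tissue could not be checked further.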

How the data were processed

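The deposited table gives the percent methylation of each cytosine on each strand, made by the authors, with 1 column per mouse and no read counts, so depth and its precision are unknown. Per the submitters' processing notes, Trim Galore 0.4.0, cutadapt 1.8.1, Bismark 0.16.1, methylKit 1.5.2 and build mm10 were named. The labels' protocols name the Premium RRBS Kit for the libraries. Filters and coverage limits are not given in the sources used here. The chromosomes run through the table in separate passes, and the first pass was taken as CpG sites: all 46852 of its rows inside RefSeq promoter windows lay on a CG. No CpG row had fewer than 3 mice with a value in any group.

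Groups follow the housing label. Percentages were transformed to log2((percent + 5)/(100 - percent + 5)) and fitted with limma 3.58.1 (R 4.3.3), with 3 group means over all 15 mice, a variance trend and two-sided tests. The Benjamini-Hochberg adjustment ran over all sites, starts, bodies or tails tested, outside chromosomes Y and M, with a call at an adjusted value under 0.05. The fitting function was tested on simulated data. The labels name no litter or batch, so none entered the fit, and each sample was taken as 1 mouse. Members and lists were chosen with earlier results of these data known. Named were member zones with an unadjusted p under 0.05 and the 3 member sites with the smallest p in each comparison. For promoter sequences the rule took the lowest and highest start levels and any named start. Alternatives were another offset, the percent scale, no trend, the replicate number as a block, each mouse left out, other site filters and other zones. Some genes of the second pathway list are counted but not reported here by name.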

Additional observations from a re-analysis of the deposited data

Results flagged for a closer look

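Within groups of 5 mice, 77 sets of values of member zones and named sites that varied were searched for a mouse far from the other 4, and 10 had one. Chance gives about 1 in 20, and many of these values sit at 0%. Enriched mouse 3 was high at the shared start of Gabra4 and Gabrb1 (9.36%, the next mouse 2.43%), at the Gabra4 site in it (10%, the others 0%), at the Gabrb1 body site (4.76%, the others 0%) and at the Slc6a9 site (3.92%, the others 0%). Enriched mouse 1 was high in the Gabbr1 body (6.45%, the next 3.32%). Standard mouse 2 was high in the Gabrg3 body (89.7%, the next 82.8%), and standard mouse 5 in the Slc6a9 body (5.61%, the others 0%). Standard mouse 3 was low at the Gabrg3 site (43.3%, the next 73.9%) and high at the Gad2 site (25%, the others 0%). Withdrawal mouse 5 was high at the site shared by Gabra4 and Gabrb1 (15.8%, the next 4.35%).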

How the results depend on the processing

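No member site or zone passed an adjusted p of 0.05 between housing groups under any alternative run, and the 9 named comparisons of sites and that of the Gad2 start kept their direction in all of theirs. Over the whole table, where the main counts for CpG sites were 0, an offset of 1 point gave 3 called sites between enriched and standard, 2 between withdrawal and standard and 1 between withdrawal and enriched mice. Without the filter on range the last of these comparisons gave 3 and withdrawal against standard 4. Gene starts gave 1 call for withdrawal against standard with at least 5 complete sites, and 1 for withdrawal against enriched with the replicate block. The 2 bodies called between enriched and standard mice fell to 0 with no variance trend, with the replicate block, with all sites and with starts from the promoter table, the last chosen after seeing the data. Bodies above starts numbered 274 of 307 with at least 5 complete sites and 1527 of 1704 with all sites, against 690 of 798. The cause was not tested, other than that the last pair tests fewer or more genes.

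Leaving out 1 mouse at a time gave 0 to 7 called sites (most without standard mouse 5), 0 to 11 (most without withdrawal mouse 3) and 0 to 6 (most without withdrawal mouse 3) in the 3 comparisons, 0 to 1 starts in each, 0 to 2 (0 without any 1 of 13 mice), 0 to 1 and 0 bodies, 0 to 1, 0 to 1 and 0 tails, and 685 to 690 bodies above starts. The replicate numbers do not pair the mice: deviations of mice with the same number correlated between -0.0177 and 0.0192 over 15 pairs, beside -0.0227 to 0.0266 over 60 pairs with other numbers. The Gad1 body minus start reversed to -4.19 points with zones of 2 kb. Levels moved by more than their SD over mice in 7 of 19 zones with all sites, 2 of 16 with zones of 2 kb and 2 of 16 with starts from the promoter table. A coverage minimum could not be run because the table has no coverage.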
